A study of Caenorhabditis elegans with 5 samples.

Results

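Animals with a germline tumour induced by RNA interference against gld-1 were compared with such animals that had been moved to control food. RNA of whole Caenorhabditis elegans adults was measured by sequencing in 5 libraries, 1 for each group, and the comparison used 2 of them. The first library came from gld-1 RNAi animals on day 3 of adulthood. The second came from gld-1 RNAi animals that had been shifted on day 2 to plates seeded with L4440, the bacteria with the empty RNAi vector, and that were collected 48 h later on day 4 (called fed below). Of 45461 gene identifiers in the table of this pair, 9895 (21.8%) had a mean of at least 50 normalized reads over both libraries and are called measured. The genes nearest to that minimum were npr-28 just inside it (48.4 normalized reads on day 3 and 51.6 in the fed library) and mlt-4 just outside it (65.8 and 34.1). A measured gene with under 50 normalized reads in 1 library passed only through the other, where it was higher. Counts of genes past a fold include such genes. Only some of them are marked as such below, and the others show it by their printed values alone.

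Each library pooled ca. 3000 animals from 2 experiments, kept at 20 °C, so no value has a replicate check. A day of age and the move off gld-1 RNAi food differ together and cannot be told apart, and no day 4 animals that stayed on gld-1 RNAi food were among the groups. The move was made on day 2, so the day 3 library does not show the moved animals before it. Time on gld-1 RNAi food may thus differ as well. The growth notes start RNAi with L1 larvae, whereas the sample notes start it after day 1 of adulthood. The other groups were L4440-fed animals of day 1 (young adult) and day 3 (control), and gld-1 RNAi animals without food from day 2 to day 4 (fasted). The day 3 library held 27598482 reads assigned to genes and the fed library 27469984, of which ribosomal RNA took 25.7% and 27.7%. Folds are log2 of the fed value plus 1 over the day 3 value plus 1, on the normalized reads of the authors. Intervals are exact 95% intervals of the read ratio that cover counting error only. Levels given for all 5 libraries are on 1 common scale and differ slightly from the values of the pair.

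GLD-1 is an RNA-binding protein of the germline that represses the translation of many mRNAs while germ cells pass through meiosis and grow into oocytes. Without it, female germ cells leave meiosis, divide again and fill the gonad as a tumour. RNAi by feeding delivers double-stranded RNA from bacteria through the gut, and its effect can outlast the food that carried it. Animals past their first days of adulthood also change with age, among other things in the collagen genes that build the cuticle and in stress genes.

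The 2 libraries were close to each other. The median log2 fold over the 9895 measured genes was -0.02, the range from the 5th to the 95th percentile was -0.43 to 0.33, and 96.3% of the genes lay within 1.5-fold. At least 2-fold higher in the fed library were 21 genes (0.212%), and at least 2-fold lower were 24 (0.243%). With equal read totals in place of the authors' scaling, this split was 13 higher and 45 lower. At 1.5-fold, 146 genes (1.48%) were higher and 218 (2.2%) lower, or 364 (3.68%) in all. The authors' deposited table holds 65 genes with an adjusted p below 0.1, 29 higher and 36 lower in the fed library, and 59 of these were measured.

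Genes with few reads lay further apart. Among 1406 genes with a mean of 50 to 100 normalized reads, 11.8% were at least 1.5-fold apart. This share was 3.92% of 4436 genes between 100 and 1000, and 0.592% of 4053 genes at 1000 or more, where no gene reached 2-fold. Of the 45 genes (0.455%) that were 2-fold apart, 23 had a mean under 100 and 10 had a counting interval wholly beyond 2-fold. Gene lists are described by their medians and counts, beside -0.02 over all measured genes. As that median is below 0, more measured genes lay below 0 than above it. Scaling to equal totals moved that median to -0.10 and scaling to equal upper quartiles to 0.02, and under at least 1 scaling 20 of 50 list medians changed sign, none of them further from 0 than 0.08. The 5 highest folds of all measured genes were those of inducible heat shock genes and the 3 lowest those of cuticle collagens.

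**Figure D1:**
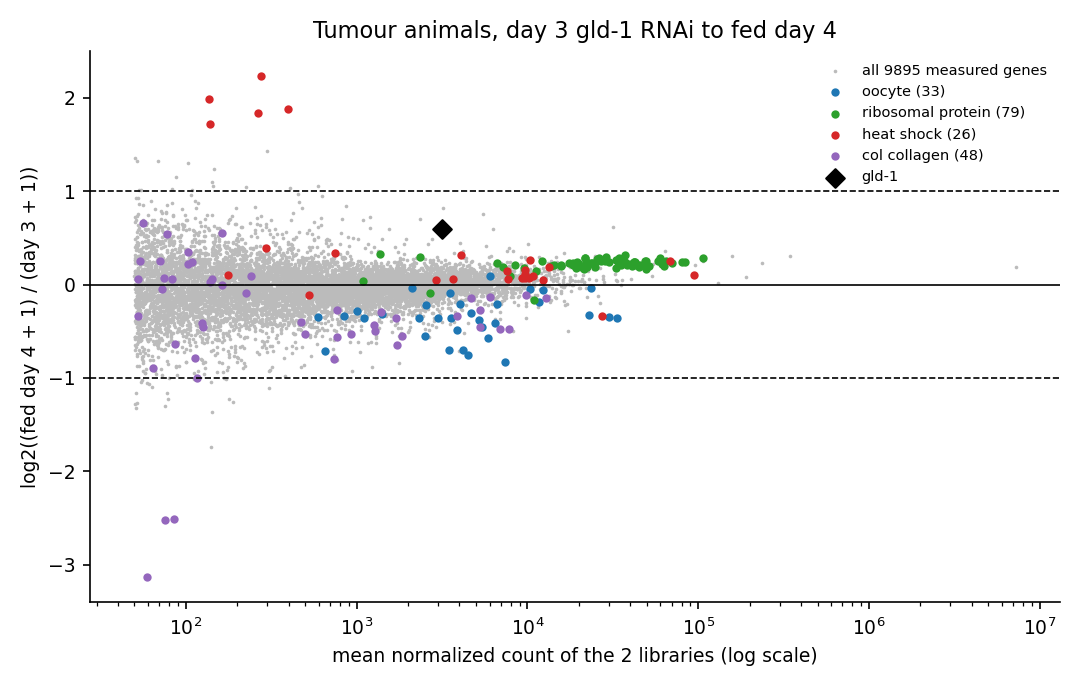
Log2 fold from gld-1 RNAi day 3 to fed day 4 (vertical axis) against the mean normalized count of the 2 libraries (horizontal axis, log scale) for 9895 measured genes in grey, with 33 oocyte, 79 ribosomal protein, 26 heat shock and 48 col collagen genes in colour and gld-1 as a diamond; dashed lines mark 2-fold. A group of 5 heat shock genes lies between 1.72 and 2.23, 3 col genes lie between -3.13 and -2.51, oocyte genes lie below 0 except skn-1, and ribosomal protein genes form a narrow band around 0.23.

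The target of the RNAi, gld-1 (T23G11.3), comes first. It had 2600 reads on day 3 and 3686 in the fed library, or 2517 and 3807 normalized reads. Its log2 fold was 0.60 (counting interval 0.52 to 0.67), and the authors' deposited table gives an adjusted p of 0.0272. Across the libraries, on the common scale, gld-1 stood at 2001 on day 3, 3071 in the fed library and 1597 when fasted, against 20407 in the control and 17651 in the young adult library. gld-1 was thus higher 48 h after the animals left the RNAi food than in the day 3 animals, and still far below both libraries of animals never given gld-1 RNAi. Bacteria of the RNAi food carry gld-1 sequence themselves, and its part in the day 3 value was not tested.

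Genes that act with gld-1 in the decision between germ cell division, meiosis and sexual fate were mostly alike in both libraries. All 20 listed genes were measured, with a median log2 fold of -0.01, 9 above and 11 below 0. At least 1.5-fold higher were gld-1 and fog-3, and nos-2 alone was at least 1.5-fold lower, against 1.48% and 2.2% of all measured genes. fog-3, a germline gene needed for sperm fate, had 208 normalized reads on day 3 and 346 in the fed library, a log2 fold of 0.73 (0.48 to 0.99). Its common-scale level was 165 and 279 in these libraries, 99.4 in the fasted, 7.01 in the control and 16.6 in the young adult library. fog-1, a partner of fog-3 in sperm fate, went from 1604 to 2172 normalized reads (log2 fold 0.44, 0.34 to 0.53). The Pumilio-family repressor fbf-1, which keeps germline stem cells dividing, stood at 1997 and 2438 (0.29). The Notch receptor gene glp-1, which receives the signal for stem cell division, had 8293 and 7943 normalized reads, a log2 fold of -0.06. Apart from gld-1, the 3 highest members were thus fog-3, fog-1 and fbf-1.

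Sperm function genes themselves did not stand out. Only 8 of 32 matched sperm genes were measured, with a median of 0.07 and none 1.5-fold apart. Among them spe-15, a myosin of sperm development, went from 1072 to 1365 normalized reads (0.35). None of 35 major sperm protein genes reached the minimum mean. Their summed level on the common scale was 82.3 on day 3, 163 in the fed, 14.4 in the fasted, 9.64 in the control and 17791 in the young adult library.

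Oocyte genes were lower in the fed library. Of 34 listed genes for oocyte growth, eggshell and egg activation 33 were measured, 32 of them below 0 and skn-1 alone above it, at 0.09. Their median log2 fold was -0.35 against -0.02 over all measured genes. At least 1.5-fold lower were 5 of the 33, against 2.2% of all measured genes, and none was 1.5-fold higher. The signs of this median and of that of the GLD-1-bound list did not depend on which of the tried scalings was used.

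The yolk receptor gene rme-2, whose product takes yolk into oocytes, had 9522 normalized reads on day 3 and 5354 in the fed library, a log2 fold of -0.83 (-0.88 to -0.78). puf-5, a Pumilio-family repressor of oocyte mRNAs, had 5627 and 3331 (-0.76, interval -0.82 to -0.69). The authors' deposited table gives adjusted p values of 1.07e-05 for rme-2 and 0.000185 for puf-5. The next genes were parts of the egg surface and of germ cell fate. nos-2, a Nanos-family gene that acts in germ cells of embryos, had 807 and 494 (-0.71, interval -0.88 to -0.55). cpg-3, a chondroitin proteoglycan of the eggshell, had 4332 and 2656 (-0.71). egg-1, a sperm receptor on the oocyte surface, had 5207 and 3215 (-0.70), and its paralog egg-2 had 3002 and 2054 (-0.55). The chitin synthase gene of the eggshell, chs-1, had 6982 and 4709 (-0.57). In the authors' deposited table the adjusted p was 0.00116 for both cpg-3 and egg-1 and 0.0288 for chs-1.

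**Figure D2:**
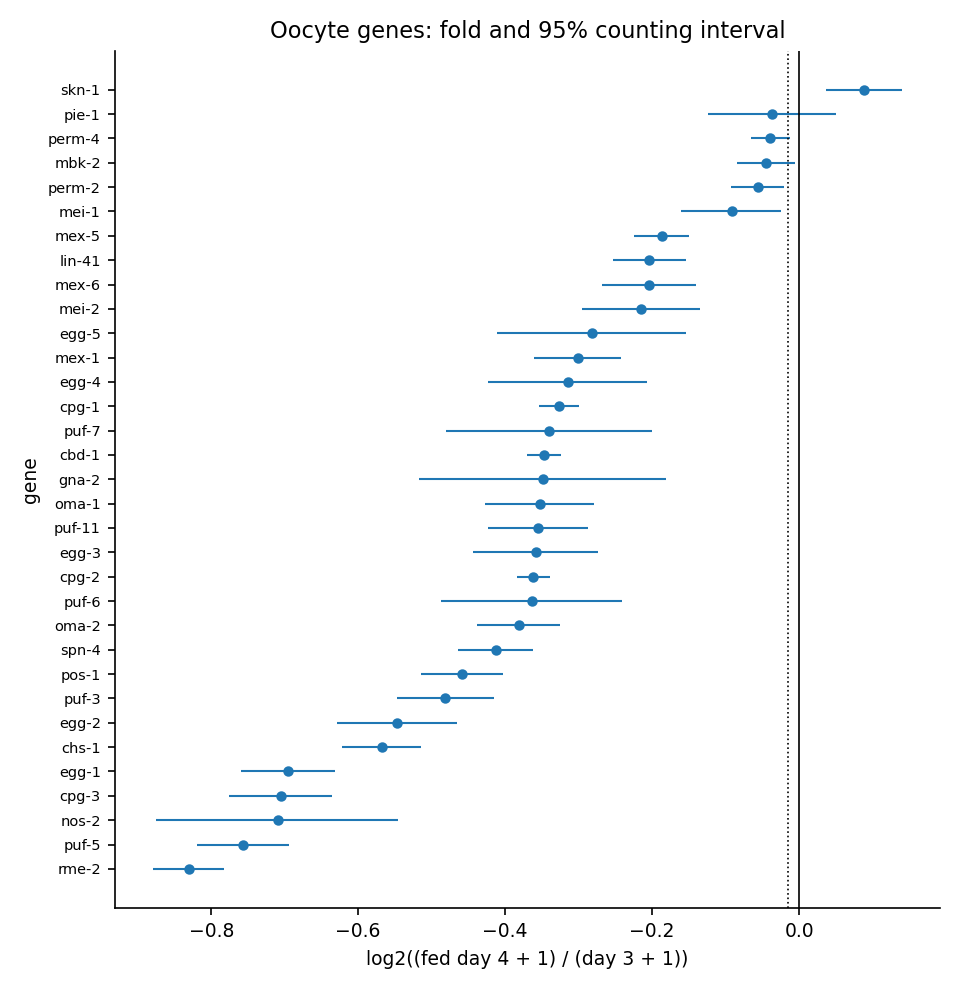
Log2 fold from gld-1 RNAi day 3 to fed day 4 (horizontal axis) of 33 measured oocyte genes (vertical axis, ordered by fold); points are folds, bars are 95% counting intervals of the read ratio, the solid line marks 0 and the dotted line the median of all measured genes at -0.02. Points run from rme-2 at -0.83 to skn-1 at 0.09.

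The oocyte genes were not evenly lower. Those of the maternal CCCH zinc finger class lay between, with pos-1 at 6281 and 4569 normalized reads (-0.46), oma-2 at 5909 and 4536 (-0.38) and pie-1 at 2144 and 2089 (-0.04). On the common scale the summed level of the 34 genes was 208558 on day 3, 171675 in the fed, 257642 in the fasted, 590786 in the control and 213775 in the young adult library. rme-2 stood in the same order, at 7568, 4319, 9713, 31058 and 12356. The fed library was the lowest of the 5 for the sum and for rme-2. In RNA of whole animals, fewer oocyte-like cells and less of these RNAs per cell cannot be told apart.

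A list of 20 mRNAs known to be bound by GLD-1 held many genes that are oocyte genes as well. Its median was -0.28 against -0.02 over all measured genes, with 16 below 0. Its 3 members at least 1.5-fold lower, against 2.2% of all measured genes, were rme-2, puf-5 and egg-1. In the other direction mes-3, a chromatin regulator of the germline, had 4255 and 5037 normalized reads (0.24). The maternal germ granule genes meg-3 and meg-4 were among the lower genes too, at 1231 and 805 (-0.61) and at 889 and 590 (-0.59). The whole germ granule list of 24 genes had a median of 0.02, and its highest member was the Piwi gene prg-1, with 23570 and 28583 (0.28). Genes first transcribed in embryos were scarce, with 6 of 26 measured and a median of -0.06. vet-6 was the lowest of them, at 64.9 and 38.2 normalized reads (-0.75).

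Germ cell division and meiosis genes differed little. All 54 matched genes of replication and mitosis were within 1.5-fold (median -0.03), as were 31 measured meiosis genes (median 0.08), 25 genes of apoptosis and checkpoints (0.01) and 34 histone genes (0.06). Histone and major sperm protein genes have near-identical copies, so their reads may be split between copies or lost.

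Ribosomal protein genes were slightly and evenly higher in the fed library. Of 79 measured members 77 lay above 0, with a median log2 fold of 0.23 and a range of -0.16 to 0.33, and none was 1.5-fold apart. rps-14, a protein of the small subunit, had 33404 and 41446 normalized reads (0.31, interval 0.29 to 0.33). rpl-7A, of the large subunit, had 25964 and 31922 (0.30). The 2 genes below 0 were rpl-11.2 (11586 and 10343, -0.16) and rpl-23A.1 (2782 and 2615, -0.09). Nucleolar genes, which make and process ribosomal RNA, had a median of 0.13, with 23 of 27 above 0. The leading 3, nol-58, nol-56 and the fibrillarin gene fib-1, each had a log2 fold of 0.29, with fib-1 at 22471 and 27478 normalized reads. Under each scaling tried, the medians of both lists stayed above 0. Summed ribosomal protein levels on the common scale were 1830451 on day 3, 2179339 in the fed, 1885835 in the fasted, 1056000 in the control and 1938264 in the young adult library.

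**Figure D3:**
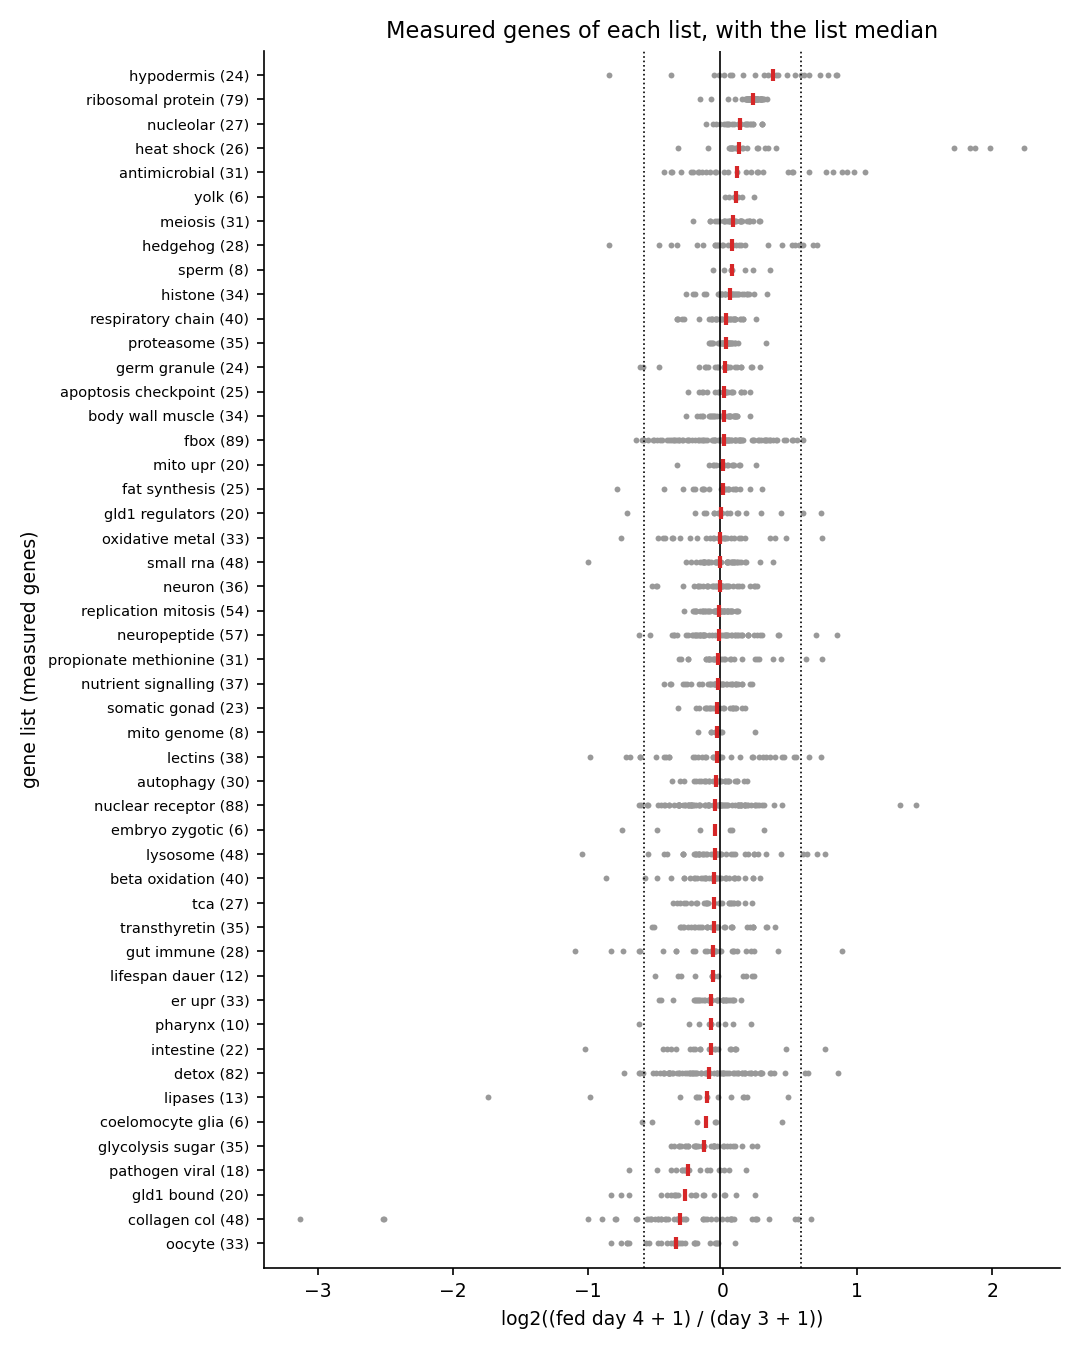
Log2 fold from gld-1 RNAi day 3 to fed day 4 (horizontal axis) of the measured genes (grey points) of each gene list with at least 5 measured genes (rows, with their number), and the list median (red bar); the solid line is the median of all measured genes at -0.02 and dotted lines mark 1.5-fold. Medians run from -0.35 for oocyte genes and -0.31 for col collagens to 0.23 for ribosomal proteins and 0.37 for the hypodermis list.

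The heat shock genes with the highest folds of all measured genes were the inducible ones of the cytosol. They encode chaperones of the HSP70 and small HSP16 families, which are nearly silent in unstressed animals and are switched on by heat and by misfolded protein. Of 33 matched heat shock genes 26 were measured, with a median of 0.13 and 24 above 0. At least 2-fold higher were 5, against 0.212% of all measured genes, and none was 1.5-fold lower.

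F44E5.4, an HSP70-family gene, had 99 reads on day 3 and 440 in the fed library, or 95.9 and 454 normalized reads, a log2 fold of 2.23 (1.93 to 2.57). hsp-70 (C12C8.1) had 175 and 604 reads, or 169 and 624 normalized reads, a log2 fold of 1.87 (1.64 to 2.13). Both are of the inducible HSP70 type. hsp-16.2 had 54.2 and 218 normalized reads (1.99, interval 1.58 to 2.46). hsp-16.11 had 115 and 413 (1.83), and hsp-16.41 had 63.9 and 213 (1.72). All 5 had adjusted p values under 0.1 in the authors' deposited table, the highest being 0.000365 for hsp-16.41. The related genes F44E5.5, hsp-16.1, hsp-16.48 and hsp-16.49 are listed at 0 in all 5 libraries. Some of the 5 values may thus hold reads of a near-identical copy.

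These genes were also low in the libraries of animals without a tumour. On the common scale F44E5.4 stood at 76.2 on day 3, 367 in the fed, 276 in the fasted, 3.51 in the control and 14.4 in the young adult library. hsp-70 stood at 135, 503, 255, 137 and 85.4 in the same order. hsp-16.2 stood at 43.1, 176, 109, 35.9 and 20.0. For each of the 5 genes both day 4 libraries lay above the day 3, control and young adult libraries, and the fed library was the highest.

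**Figure D4:**
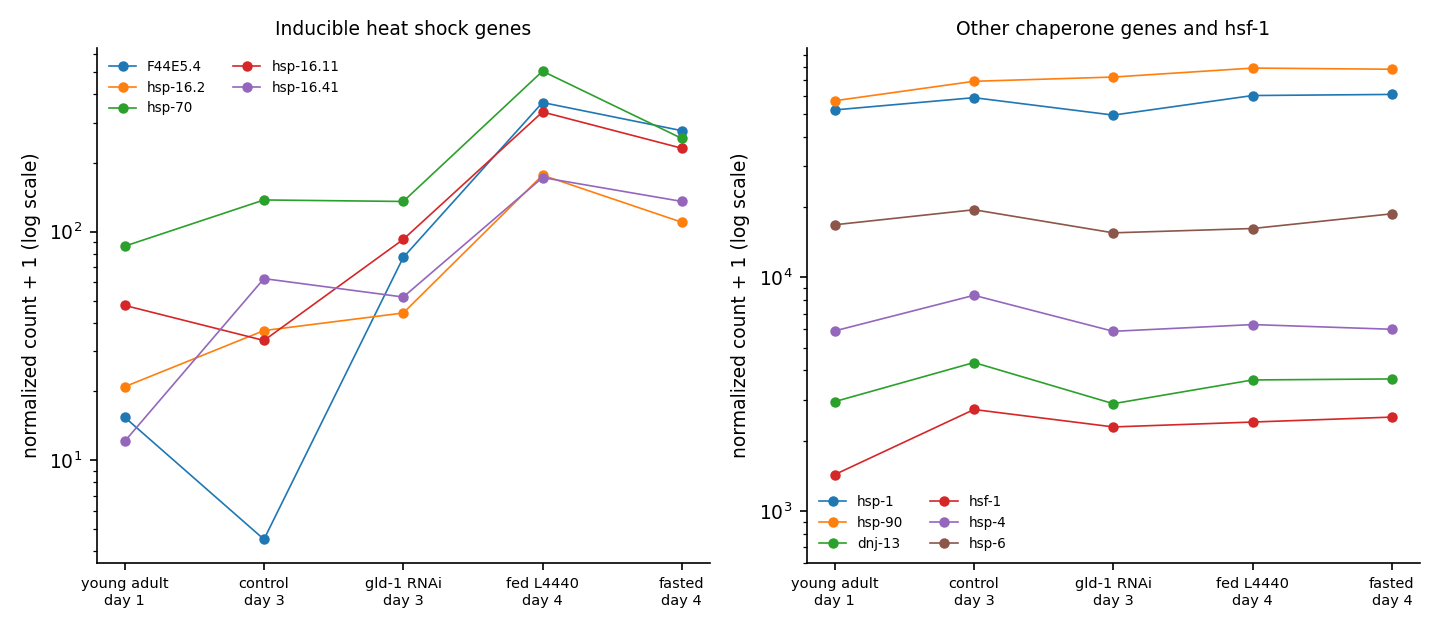
Normalized count plus 1 (log scale, common scale of all libraries) in each of the 5 libraries for 5 inducible heat shock genes (left) and 6 other chaperone genes and regulators (right); points are single libraries and lines only join the points of a gene. The inducible genes are highest in the fed library, with hsp-70 at 503, whereas the genes on the right stay within 1.5-fold from day 3 to the fed library, with hsp-1 at 0.26 on the log2 scale.

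Chaperones that every cell uses differed far less. The constitutive HSP70 gene hsp-1 had 62384 and 74548 normalized reads (0.26), hsp-110 had 9434 and 11331 (0.26) and the HSP40 gene dnj-13 had 3623 and 4510 (0.32). hsp-90 had a log2 fold of 0.11, and hsf-1, the transcription factor of the heat shock response, one of 0.05. The small heat shock gene sip-1, which is expressed in oocytes and embryos, was the lowest of the list at 30536 and 24235 (-0.33). Stress genes of other compartments were alike in both libraries. Of 33 genes of the endoplasmic reticulum stress response none was 1.5-fold apart (median -0.08), with the BiP gene hsp-4 at 0.07. Of 20 genes of the mitochondrial stress response none was either (median 0.01).

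The lowest folds of all measured genes were those of 3 cuticle collagens. col-81 had 111 reads on day 3 and 11 in the fed library, or 107 and 11.4 normalized reads, a log2 fold of -3.13 (-4.29 to -2.35). col-129 had 129 and 21.7 normalized reads (-2.52, interval -3.31 to -1.90), and col-139 had 146 and 24.8 (-2.51, interval -3.25 to -1.93). All 3 passed the minimum mean only through the day 3 library. The authors' deposited table gives adjusted p values of 7.65e-07 for col-81, 1.32e-05 for col-129 and 4.49e-06 for col-139. Common-scale levels of these genes were 42410, 48770 and 48646 in the young adult library and 33.3, 14.9 and 92.9 in the control. On day 3 they were 85.4, 102 and 116, above the control and far under the young adult level.

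Of 159 col genes 48 were measured, with a median of -0.31, 34 below 0 and 14 above. At least 1.5-fold lower were 9, against 2.2% of all measured genes, and col-60 alone was 1.5-fold higher, against 1.48%, at 43.6 and 69.2 normalized reads (0.66). Better covered among the lower ones were col-20 with 940 and 540 (-0.80, interval -0.96 to -0.64) and col-80 with 2112 and 1351 (-0.64). The authors' deposited table gives adjusted p values of 0.0249 and 0.0288 for these. Summed over the 159 genes, the level on the common scale was 787802 in the young adult, 119185 in the control, 70193 on day 3, 57877 in the fed library and 13855 when fasted. The col genes share sequence, so reads may be assigned to the wrong copy. A further 4 cuticle genes lay below the minimum mean and were picked after their values were seen. dpy-13 had 53.2 and 11.4 normalized reads (-2.13), rol-6 had 19.4 and 3.1 (-2.31), and dpy-4 and dpy-5 each had 43.6 and 10.3 (-1.98).

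The day 3 and fed libraries were also compared over genes of the young adult. A set of 97 genes had at least 1000 normalized reads in the young adult library and was at least 32-fold lower in the control, by 2 libraries that the comparison does not use. Only 16 of these reached the minimum mean, 9 of them higher and 7 lower in the fed than in the day 3 library. Over all 97, most of them at low counts, 48 were higher and 49 lower. Their summed level on the common scale was 2509 on day 3 and 2498 in the fed library. The 3 collagens above belong to this set.

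Most measured genes of the hypodermis list went the other way. The hypodermis list, which holds genes of the epidermis and its cuticle, had 24 of 40 genes measured, with a median log2 fold of 0.37 and 20 above 0. At least 1.5-fold higher were 6, against 1.48% of all measured genes. The groundhog gene grd-3 alone was 1.5-fold lower, at 210 and 117 normalized reads (-0.84). The 16 others of the list lay under the minimum mean, among them rol-6, given above as lower. The collagen gene dpy-14 had 617 and 1108 (0.84, interval 0.70 to 0.99), and dpy-17 had 904 and 1492 (0.72, interval 0.60 to 0.84). The authors' deposited table gives adjusted p values of 0.00506 and 0.0174 for these. Another 3 genes, collagens of the cuticle furrows, were less well covered. dpy-3 had 39.7 and 72.3 (0.85), dpy-7 had 56.2 and 97.1 (0.78) and dpy-2 had 69.7 and 109 (0.64). dpy-3 passed the minimum mean only through the fed library. noah-1, a protein of the outer matrix over the epidermis, had 952 and 1450 (0.61, interval 0.49 to 0.73). Set on the common scale, dpy-17 stood at 719 on day 3, 1204 in the fed, 725 in the fasted, 649 in the control and 65.5 in the young adult library. dpy-14 stood at 490, 894, 539, 622 and 5.55. The fed library was the highest of the 5 for both.

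**Figure D5:**
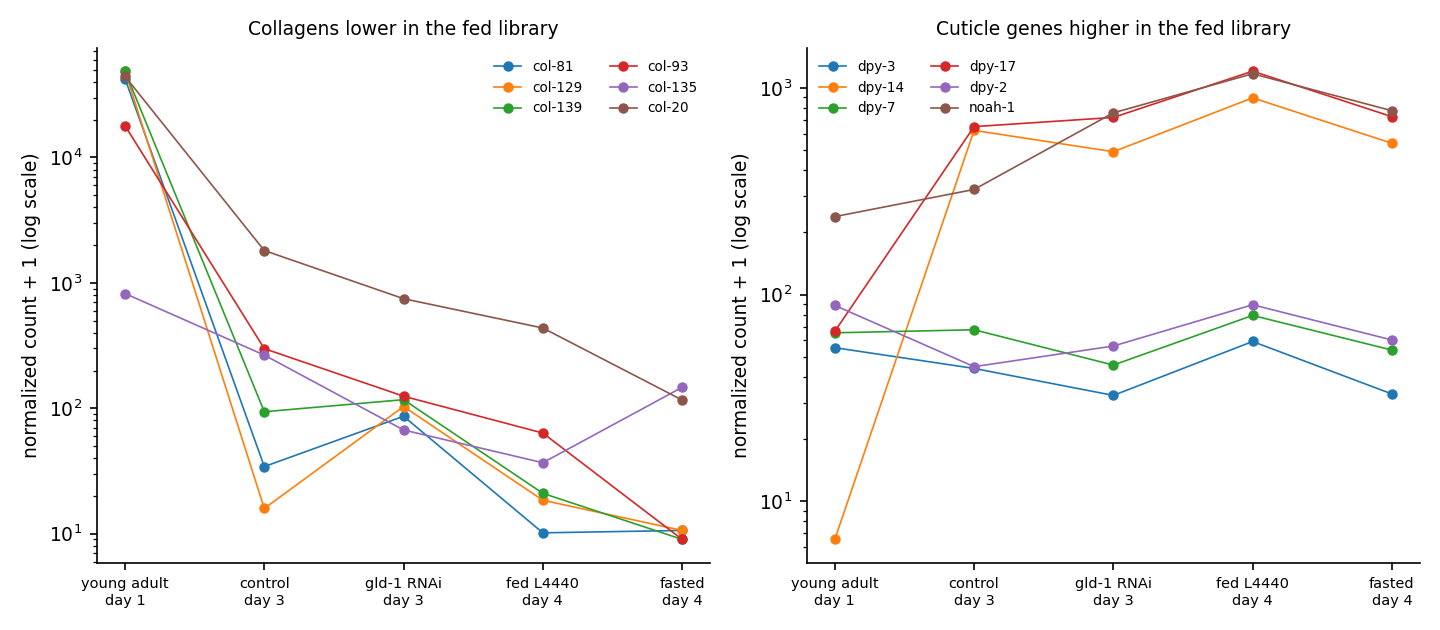
Normalized count plus 1 (log scale, common scale of all libraries) in each of the 5 libraries for 6 collagens lower in the fed library (left) and 6 cuticle genes higher in it (right); points are single libraries and lines only join the points of a gene. The left genes are highest in the young adult library, with col-81 at 42410, 33.3, 85.4, 9.17 and 9.62 in the order plotted, and the right genes have their highest point in the fed library.

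Yolk genes, which the intestine makes in adults, were close in both libraries. All 6 lay above 0, from 0.02 for vit-5 to 0.23 for vit-6 (217752 and 255877 normalized reads). vit-2 had 184920 and 195914 (0.08). vit-3 and vit-4, whose reads may be split between them, had 6578 and 6783 (0.04) and 6816 and 7537 (0.14).

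Genes of defence peptides and lysozymes that differed were higher in the fed library. Of 63 listed antimicrobial genes 31 were measured, with a median of 0.10. At least 1.5-fold higher were 7, against 1.48% of all measured genes, and none was 1.5-fold lower. thn-2, a thaumatin-family gene, had 2317 and 4097 normalized reads (0.82, interval 0.75 to 0.90), and its relative thn-1 had 93.9 and 196 (1.06). The saposin-like gene spp-9 had 307 and 603 (0.97). The invertebrate lysozyme gene ilys-3 had 324 and 601 (0.89). The authors' deposited table gives adjusted p values of 4.83e-05 for thn-2, 0.0123 for spp-9 and 0.035 for ilys-3. abf-5, cnc-2 and cnc-4, of the defensin-like and caenacin families, completed the 7, with log2 folds of 0.93, 0.76 and 0.64. abf-5, at 34.9 and 67.1 normalized reads, passed the minimum mean only through the fed library. The fasted library differed from gene to gene, with thn-1 at 2070 and ilys-3 at 1815 on the common scale against spp-9 at 22.5. spp-9 was almost absent from animals without a tumour, at 0.876 in the control and 0 in the young adult library.

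Within 48 measured lysosome genes the median was -0.06. The 4 at least 1.5-fold higher, against 1.48% of all measured genes, were cathepsin B-like proteases of the cpr family, which has 6 measured members. cpr-1 had 4103 and 6946 normalized reads (0.76, interval 0.70 to 0.82), cpr-5 had 1784 and 2897 (0.70), cpr-4 had 4984 and 7541 (0.60) and cpr-8 had 95.9 and 149 (0.63). The authors' deposited table gives adjusted p values of 0.000138, 0.00373 and 0.0147 for cpr-1, cpr-5 and cpr-4. The other cpr genes were cpr-6 at 7584 and 7397 (-0.04) and cpr-3 at 496 and 367 (-0.43), and the glucocerebrosidase gene gba-4 was the lowest of the list at 73.6 and 35.1 (-1.05).

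Infection response genes of the gut had a median of -0.07. Of 28 measured genes 5 were at least 1.5-fold lower and ilys-3 alone 1.5-fold higher, against 2.2% and 1.48% of all measured genes. cld-9 had 87.1 and 40.3 normalized reads (-1.09), irg-2 had 129 and 72.3 (-0.82), dod-22 had 190 and 114 (-0.74) and dod-6 had 1110 and 722 (-0.62). C-type lectins, which bind sugars, were mixed. Of 38 measured 5 were at least 1.5-fold lower and 2 higher, with clec-209 at 152 and 76.4 (-0.98) and clec-91 at 1296 and 788 (-0.72) on one side and clec-145 at 139 and 232 (0.73) on the other. Genes of the response to intracellular pathogens had a median of -0.26 against -0.02 over all measured genes, with 15 of 18 measured below 0. pals-6 led them at 65.8 and 40.3 (-0.70), and the cullin gene cul-6, which acts in that response, had 238 and 169 (-0.49).

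Single genes of fat metabolism and gene control stood out from lists with small median folds. The lipase gene lips-13 had 216 normalized reads on day 3 and 64 in the fed library (-1.74, interval -2.18 to -1.34), and lips-11 had 509 and 257 (-0.98, interval -1.21 to -0.77). Both were lower in the control and fasted libraries, with lips-13 at 2.63 and 12.8 and lips-11 at 50 and 8.02 on the common scale. The authors' deposited table gives adjusted p values of 0.000321 and 0.0232. Of 13 measured lipase genes (median -0.11) these were the 2 at least 1.5-fold apart, against 3.68% of all measured genes. dgat-2, an enzyme of triglyceride synthesis, had 473 and 275 (-0.78). The fatty acid amide hydrolase gene faah-2 had 1237 and 651 (-0.93, interval -1.07 to -0.79).

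Among 88 measured nuclear hormone receptor genes the median was -0.05 and 2 were at least 2-fold higher, against 0.212% of all measured genes. nhr-17 had 161 and 436 normalized reads (1.43, interval 1.18 to 1.71), the highest fold after the heat shock genes, and nhr-43 had 38.7 and 98.1 (1.32). nhr-43 passed the minimum mean only through the fed library. nhr-17 stood at 128 on day 3, 352 in the fed, 218 in the fasted, 172 in the control and 179 in the young adult library on the common scale, so the day 3 value was the lowest of the 5. The carboxylesterase gene cest-24 had 387 and 804 (1.05), and the authors' deposited table lists it with an adjusted p of 0.000516. catp-2, of the cation ATPase family, had 59.1 and 147 (1.3), and pho-8, of the acid phosphatase family, had 86.2 and 205 (1.24). ant-1.3, an adenine nucleotide translocase, had 72.6 and 143 (0.96), and npr-41, of the neuropeptide receptor family, had 78.4 and 147 (0.89).

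On the lower side the gene scl-20, of a secreted cysteine-rich family, had 265 and 111 normalized reads (-1.26, interval -1.6 to -0.94). It was listed at 0 in the young adult library and stood at 242 in the control on the common scale. athp-3 had 190 and 91.9 (-1.04), hmit-1.1, a myo-inositol transporter, had 229 and 114 (-1.01), mfsd-8.1 had 169 and 86.8 (-0.96) and ent-5, of the nucleoside transporter family, had 283 and 152 (-0.89). icmt-1, an enzyme that methylates prenylated proteins, had 612 and 331 (-0.89).

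RNAi and small RNA genes as a group were alike, with a median of -0.02 over 48 measured genes. The exception was sid-5, a protein for the spread of silencing between cells, with 224 and 112 normalized reads (-1.0, interval -1.35 to -0.67). Its common-scale level was 178 on day 3, 90 in the fed, 112 in the fasted, 87.6 in the control and 78.8 in the young adult library, so the day 3 library was the high one. The Argonaute gene ppw-2 had 19732 and 23945 (0.28), and nrde-3, an Argonaute of nuclear silencing, had 1148 and 953 (-0.27).

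Muscle and neuron genes were alike in both libraries. None of 34 measured body wall muscle genes (median 0.01) and none of 36 neuron genes (median -0.02) was 1.5-fold apart. The muscle myosin gene unc-54 had 10655 and 10153 normalized reads (-0.07), and the neuronal gene unc-119 had 314 and 280 (-0.16). Of 22 intestine genes 2 were 1.5-fold apart, against 3.68% of all measured genes. They were cpr-1 above and the acid phosphatase gene pho-1 below (74.6 and 36.1, -1.02). The gut regulator elt-2 had 77.5 and 74.4 (-0.06). Pharynx genes had 10 of 26 measured, with a median of -0.09. dod-6, also given above among gut genes, was alone 1.5-fold lower, against 2.2% of all measured genes. Of 6 measured genes of coelomocytes and glia 5 lay below 0, from lit-1 at -0.05 to cup-4, a coelomocyte gene, at 101 and 66.1 (-0.60). cup-4 alone was 1.5-fold lower, against 2.2% of all measured genes. ptr-10 lay above 0, at 161 and 219 (0.44). unc-122 of the same list was under the minimum mean, at 46.5 and 50.6 (0.12). Proteasome genes (35, median 0.02) and genes of the respiratory chain (40, median 0.03), the tricarboxylic acid cycle (27, median -0.06) and glycolysis (35, median -0.14) held no member 1.5-fold apart.

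Genes of autophagy and nutrient sensing were nearly equal in the 2 libraries. None of 30 measured autophagy genes was 1.5-fold apart (median -0.05). hlh-30, a transcription factor of autophagy, had 1401 and 1357 normalized reads (-0.05, interval -0.15 to 0.06), lgg-1 had 5393 and 5459 (0.02), bec-1 had 1129 and 1155 (0.03) and unc-51 had 1474 and 1378 (-0.10). Of 37 measured genes of nutrient signalling none was 1.5-fold apart either. daf-16, the transcription factor of insulin signalling, had 4823 and 5613 (0.22), and nhr-49, a regulator of fat use, had 2478 and 2528 (0.03). fat-6, a fatty acid desaturase, had 3905 and 3646 (-0.10), whereas its close copy fat-7 is listed at 0. lipl-4, a lysosomal lipase, was too low to compare, at 22.3 and 20.7. The counting intervals of fat-6, nhr-49, daf-16, unc-51, bec-1, lgg-1 and hlh-30 lay within 1.5-fold in both directions.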

How the data were processed

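RNA of gld-1 RNAi animals of day 3 and of gld-1 RNAi animals moved to L4440 food was compared, with 1 library per group. Per the submitters' processing notes, TopHat, HTSeq and DESeq were used, with no version given. No coordinates are printed, the genome build being not given in the sources used here. The sources do not state strandedness either, so genes that overlap on opposite strands cannot be told apart. Per the file headers, the authors deposited 2 columns of normalized signal per gene for each pair of libraries, beside the log2 ratio and an adjusted p-value. These deposited signal values are counts per gene over the size factor of the pair. The assignment of columns to libraries follows the order of the names in each table. The smallest value above 0 in a column was taken as 1 read. Of the values above 0, 100% were whole to within 0.1 read. Libraries present in more than 1 table had the same reads in each (0 genes differed).

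Folds were log2 of the fed value plus 1 over the day 3 value plus 1, which understates the difference of low genes. Calls and list medians cover genes with a mean of at least 50, and a fold printed for a gene below it is said to be so. Exact Clopper-Pearson intervals (95%) of the read ratio reach 0.60, 0.41 and 0.13 on either side at 50, 100 and 1000 reads in each library. No count model was fitted and no test of the condition is given, because single libraries leave no residual degrees of freedom. The adjusted p-values are the authors' own and, at 1 library per group, do not measure variation between pools. Levels over all 5 libraries are recovered reads over median-of-ratios size factors. Of 45461 identifiers, 44936 matched a name in RefSeq or the Ensembl release 115 annotation. The 525 others held at most 0.368% of the reads of either library. Computations used Python 3.11.15 with pandas 2.3.3 and SciPy 1.17.1, and the steps were tested on simulated data.

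The 51 gene lists (3073 of 3099 entries matched), the members and the naming rule were chosen with earlier results of these data known. The lists overlap. The text names gld-1, 12 genes with the highest and 12 with the lowest folds among named genes with a mean of at least 100, 13 genes of autophagy, lipids, germline and neurons, up to 4 leading members of each list and up to 2 that went at least 1.5-fold the other way. Genes outside these classes were named for their role in a list after their values were seen. Alternatives were other scalings (equal totals, equal totals without rRNA, equal upper quartiles, size factors over 5 libraries), minimum means of 10, 200 or none, a pseudocount of 10 or none, the counting interval and the authors' adjusted p.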

Additional observations from a re-analysis of the deposited data

How the results depend on the processing

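The log2 fold of gld-1 stayed above 0 under every scaling, minimum and pseudocount tried, and was lowest, at 0.51, with equal read totals. That scaling gave 13 genes at least 2-fold higher and 45 lower, against 21 and 24. Equal totals without rRNA gave 15 and 34, and upper quartiles 23 and 19. The counts depended more on the minimum mean, with 166 higher and 159 lower at a minimum of 10, 7 and 1 at a minimum of 200, and 2477 and 1084 with none. With no minimum, genes with 1 read in the fed and 0 in the day 3 library (1255) pass 2-fold, whereas those with the opposite reads do not. A pseudocount of 10 left 15 higher and 14 lower, and a counting interval wholly beyond 2-fold left 6 and 4. Under the scalings tried, 20 of 50 list medians changed sign and the others kept theirs. Only 8 of the 45 genes that were 2-fold apart had a mean of at least 200, so most of these folds rest on few reads, and a spread between pools of animals cannot be seen. No paired analysis was possible because each group has 1 library.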

Other observations

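Genes were also ordered by how the control library of day 3 differed from the young adult library of day 1, a contrast that shares no library with the comparison of tumour animals and was looked at after the results above were known. Among 1530 measured genes whose control level was higher than the young adult level by a log2 ratio of 1 to 3, the median log2 fold from day 3 to the fed library was -0.08. Of these, 74 (4.84%) were at least 1.5-fold lower in the fed library and 7 (0.458%) were at least 1.5-fold higher. The 106 genes with a ratio above 3 had a similar lower share, 6 (5.66%), but also 4 (3.77%) higher and a median of -0.01. Among 5979 genes with a ratio between -1 and 1 the median was 0.00, with 59 (0.987%) lower and 47 (0.786%) higher. Among 1396 genes with a ratio of -3 to -1 it was -0.01, with 33 (2.36%) lower and 27 (1.93%) higher, and among 149 genes with a ratio of -5 to -3 it was -0.01 too, with 12 (8.05%) lower and 8 (5.37%) higher. The 27 measured genes that were lower in the control by a log2 ratio beyond -5 were the most spread, with quartiles of -0.13 and 0.56. Among them 6 (22.2%) were at least 1.5-fold higher and 4 (14.8%) lower, against 1.48% and 2.2% of all measured genes. Together these classes hold fewer than the 9895 measured genes, so they do not cover the whole measured set. Genes share libraries and read depth, so these counts describe the 2 libraries and test nothing.

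Some single genes with roles in stress and amino acid metabolism lay apart in lists with small median folds. cbs-2, a cystathionine beta-synthase, had 99.7 normalized reads on day 3 and 167 in the fed library (log2 fold 0.74, counting interval 0.38 to 1.12), and cth-1, a cystathionine gamma-lyase of the same route, had 167 and 257 (0.62). rhy-1, a regulator of the hypoxia response, had 107 and 179 (0.74), and cdr-2, of a cadmium-responsive family, had 187 and 111 (-0.75). Among glucuronosyltransferase genes ugt-21 had 37.8 and 69.2 (0.86) and ugt-54 had 72.6 and 43.4 (-0.73). lea-1, a protein of desiccation tolerance, had 20369 and 14394 (-0.50, interval -0.53 to -0.47), the lowest fold of the 12 measured lifespan and dauer genes. Of the 45 genes 2-fold apart, 25 have a gene name.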
